A study of Mus musculus with 8 samples.

Results

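The mouse miR-297, miR-466, miR-467 and miR-669 families were followed in plasma of mice given imatinib, doxorubicin or solvents. Members were all non-control mouse names on the array that start with one of these 4 stems followed by a letter, a hyphen or the end of the name. The rule took 61 of 1881 mouse names, measured by 162 probes, and used no measured value. By stem they were 3 names of miR-297, 23 of miR-466, 12 of miR-467 and 23 of miR-669.

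A miRNA is a short RNA cut from a hairpin precursor, and the suffixes 5p and 3p name the arm of the hairpin it comes from. It pairs with messenger RNAs mainly through its seed, the bases near its 5′ end. Most mouse genes of these families lie in a large cluster within an intron of Sfmbt2, which encodes a Polycomb group protein and is expressed from the paternal allele in early embryos and placenta. The cluster is a rodent expansion rich in simple repeats of A and C or of G and U, and is known for its expression in trophoblast and embryonic stem cells.

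In RefSeq (GRCm38.p6), 71 of 81 genes of the 4 stems lay inside Sfmbt2 and 10 lay outside it. Of the 61 names, 60 were matched to a gene: 49 to genes inside Sfmbt2 only, 8 to genes elsewhere only and 3 to copies in both places. The name miR-466a-5p was not matched. The members are therefore called here by their stems and not as a single cluster.

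Mature sequences were found for 7 members in the RefSeq table and are shown because they carry the repeats of these families and because 4 of them were detected in plasma. A pair of miRNAs from outside the families, miR-1187 and miR-574-5p, is added because their signal is set beside that of miR-669n and miR-466i-5p. The seed, bases 2 to 8, is in capitals.
miR-669n: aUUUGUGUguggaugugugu
miR-467f: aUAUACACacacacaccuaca
miR-466q: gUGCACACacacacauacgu
miR-466i-3p: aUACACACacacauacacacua
miR-466j: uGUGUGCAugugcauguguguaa
miR-466k: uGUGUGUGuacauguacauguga
miR-467g: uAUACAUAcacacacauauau
miR-1187: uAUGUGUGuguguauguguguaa
miR-574-5p: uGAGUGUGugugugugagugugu

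All 7 members lie outside Sfmbt2 in GRCm38.p6. The gene of miR-669n is within Slc30a7, with the mature sequence at chr3:115979905-115979924 on the plus strand. That of miR-467f is within Fxr2 (chr11:69635419-69635439, minus strand), and that of miR-466q within Tnik (chr3:28419988-28420007, plus strand). The gene of miR-466i-3p is within Cdk13 (chr13:17747552-17747573, plus strand). The undetected members were miR-466k within Gm31419 (chr3:85467396-85467418, plus strand), miR-467g within Grk4 (chr5:34732872-34732892, minus strand) and miR-466j, in no other gene (chr10:60960802-60960824, plus strand).

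The 7 seeds differed from each other, and no other mature miRNA of the table had any of them. Members of the A and C repeat type shared long runs, which can include the seed. The mature sequences of miR-466i-3p and miR-466q shared an unbroken run of 14 bases, and those of miR-466i-3p and miR-467f a run of 13. Between the repeat types runs were short, with 2 bases shared by miR-669n and miR-467f. The longest stretch of alternating A and C was 12 bases in miR-466q and in miR-467f, 11 in miR-466i-3p and 9 in miR-467g. The longest stretch of alternating G and U was 9 bases in miR-466k, 8 in miR-669n and 7 in miR-466j, against 13 in miR-574-5p and 11 in miR-1187.

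The letters ACACACAC, searched on the mature strand, occurred in 4 of 1608 mature miRNAs that were both in the table and on the array (0.249%). These were miR-466i-3p, miR-466q, miR-467f and miR-467g, and 3 of the 4 were detected. The letters GUGUGUGU occurred in 7 (0.435%), of which 4 were detected. Of the 7 members with a sequence, only miR-466k was among them. The other members, miR-466i-5p included, had no sequence in the table and were not searched. Of all 1608, 22.2% were detected. These are matches of letters only.

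The study compared plasma of female NMRI mice aged 3 months, an outbred stock. Imatinib, a tyrosine kinase inhibitor, was given by mouth once a day (IMB; 9 doses of 100 mg/kg). Doxorubicin, an anthracycline, was injected intravenously on alternate days (DOX; 4 doses, each of 3 mg/kg). Control mice received solvents (CTRL). Each one-colour Agilent array held 1 pool of 3 mice, extracted from 300 µl plasma. All pools were from day 9, with the same RNA volume of 3.1 µl. There were 3 IMB, 3 DOX and 2 CTRL pools, so single animals were not resolved and the small number of arrays limits the precision.

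The arrays lay on 1 slide, and no spot was saturated. Before scaling, the 75th percentile of the probes detected on all 8 arrays ran from 196 to 425 intensity units, with IMB pool 1 lowest and IMB pool 2 highest. Of the marker lists of blood and liver, 6 of 7 red cell names, 4 of 4 platelet and myeloid names and 2 of 2 liver names were detected on every array. Of the others, 3 of 4 striated muscle names and 1 of 2 lymphocyte names were. The red cell index, the log2 difference of miR-451a and miR-23a-3p, was 3.18 and 3.84 in CTRL, 3.90 to 4.45 in IMB and 2.68 to 3.15 in DOX, so the 3 groups did not overlap. With this index as a covariate no member was called in any comparison, nor was any other tested miRNA. The SE of miR-466i-5p in IMB minus DOX rose from 0.31 to 0.77. As the groups did not overlap on the index, this fit cannot tell the index and the drugs apart. Plasma, like any bulk sample, does not show whether a lower signal came from fewer cells of origin or from less RNA of each cell.

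Detection was taken from Agilent's flag per miRNA, gIsGeneDetected. It was set on at least 1 array for 11 of 61 members (18.03%), against 422 of 1881 mouse names (22.4%). It was set on all 8 arrays for 3 members (4.92%), namely miR-466i-5p, miR-669n and miR-669f-3p, against 296 of all mouse names (15.7%). By stem, 5 names of miR-466, 1 of miR-467, 5 of miR-669 and 0 of the 3 of miR-297 were detected on any array. A stricter rule, over 50% of the spots of at least 1 probe well above background, held on some array for 8 members (13.1%) against 357 names (19.0%), and on all 8 arrays only for miR-466i-5p and miR-669n.

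The detected members had matched genes in both places in the genome. Locations here and below are those of genes matched by name, and array signal does not show the gene of origin. Of the 49 names with genes only inside Sfmbt2, 5 were detected: miR-669f-3p, miR-466h-3p, miR-669p-3p, miR-669l-5p and miR-669e-5p. Of the 8 names with genes only elsewhere, 5 were detected: miR-466i-5p and miR-466i-3p in Cdk13, miR-669n in Slc30a7, miR-467f in Fxr2 and miR-466q in Tnik. The remaining detected name, miR-466f-3p, has copies in both places. The highest mean signal over arrays was 21.4 intensity units among names inside Sfmbt2 and 547 among names elsewhere, with medians of 0.028 and 6.81. These are the unscaled signals averaged over the probes of a name; they depend on each probe, so their order is one of array signal and not of amount.

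The 50 undetected members had mean signals of -3.42 to 7.10 intensity units with a median of -0.14, and 27 of them were below 0. The highest were miR-466m-5p at 7.10, miR-669o-5p at 5.90, miR-669b-5p at 4.85, miR-466h-5p at 4.59 and miR-466c-5p at 3.96. Negative control spots, 1000 on each array, had means of 0.78 to 1.66 with SDs of 3.47 to 4.46. Most of the families was therefore not detectable above the array background, which does not show that it is absent from plasma.

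**Figure D1:**
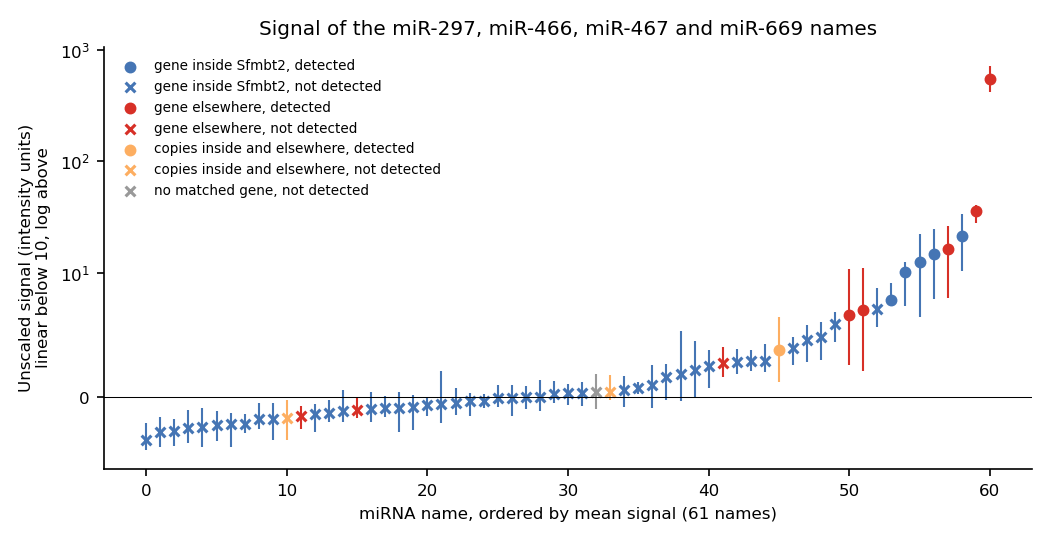
Unscaled signal in intensity units (linear below 10, logarithmic above) of the 61 names in order of mean; points are means over 8 arrays, lines span the lowest to the highest array, circles are names detected on at least 1 array and crosses names detected on none, coloured by where the RefSeq gene lies. Names from genes elsewhere hold the highest points, up to 547, and names inside Sfmbt2 reach 21.4.

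The number of members detected per array was 8 and 9 in CTRL, 5, 9 and 8 in IMB, and 5, 9 and 6 in DOX. The groups overlapped, and the lowest arrays were pool 1 of each drug. The means were 8.5 ± 0.71 (SD, n = 2) in CTRL, 7.33 ± 2.08 (SD, n = 3) in IMB and 6.67 ± 2.08 (SD, n = 3) in DOX. The difference was -1.17 for IMB minus CTRL (exact 2-sided permutation p = 0.9), -1.83 for DOX minus CTRL (exact p = 0.4) and 0.667 for IMB minus DOX (exact p = 1). All 3 adjusted values by Benjamini-Hochberg were 1, and designs of this size cannot give an exact permutation p below 0.1. IMB minus CTRL was 0 without IMB pool 1.

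The member with the highest array signal was miR-466i-5p, from the hairpin within Cdk13. Its unscaled signal, the mean of its probes before scaling, was 495.6 and 564 intensity units in CTRL, 595, 710 and 419 in IMB, and 471, 507 and 611 in DOX. The lowest and the highest pool were both IMB pools, and the groups overlapped. Agilent's total gene signal for it was 210 and 312 in CTRL, 253, 385 and 178 in IMB, and 200, 215 and 259 in DOX.

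Agilent's total gene signal, listed at 0.1 where a name is not detected, was not on one scale over the arrays. Over the 178 miRNAs with all of 2 or more probes well above background on every array, the median ratio of total gene signal to the mean of the probes was 0.424 on 6 arrays, 0.554 on CTRL pool 2 and 0.543 on IMB pool 2. The same ratios held for miR-466i-5p and miR-669n. Total gene signals of CTRL pool 2 and IMB pool 2 are therefore higher for the same probe signal, and the unscaled probe means are given first here.

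After scaling to the 75th percentile, the log2 signal of miR-466i-5p was 8.86 and 8.83 in CTRL, 9.74, 8.88 and 8.53 in IMB, and 9.28, 9.17 and 9.33 in DOX. All DOX pools lay above both CTRL pools, while the IMB pools lay on both sides of them. The log2 difference was 0.42 (SE 0.34, 95% confidence interval -0.44 to 1.27) for DOX minus CTRL, with a limma adjusted p of 0.91. It was 0.20 (SE 0.34, interval -0.66 to 1.06, limma adjusted p = 0.97) for IMB minus CTRL and -0.21 (SE 0.31, interval -0.98 to 0.55, limma adjusted p = 0.90) for IMB minus DOX. None passed the threshold of 0.05, and the upper bound in DOX against CTRL is a 2.42-fold change. These SEs use a spread shared by all groups, and the log2 SD was 0.63 in IMB, 0.09 in DOX and 0.02 in CTRL. Fitted on the DOX and CTRL pools only, DOX minus CTRL was again 0.42 (SE 0.06, limma adjusted p = 0.22). Without scaling, DOX minus CTRL was -0.01, while the median of all tested miRNAs moved by -0.32, so the higher value in DOX is relative to the other miRNAs on the array.

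The other member well above background on every array was miR-669n, from the gene within Slc30a7. Its unscaled signal was 36.7 and 35.6 in CTRL, 39.3, 40.6 and 27.9 in IMB, and 34.6, 34.1 and 39.6 in DOX. Before scaling its group means were close, at 36.2 ± 0.777 (SD, n = 2) in CTRL, 35.9 ± 6.996 (SD, n = 3) in IMB and 36.1 ± 3.05 (SD, n = 3) in DOX. The total gene signal was 15.6 and 19.7 in CTRL, 16.7, 22.1 and 11.8 in IMB, and 14.7, 14.5 and 16.8 in DOX.

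On the scaled log2 scale, miR-669n was 5.11 and 4.84 in CTRL, 5.82, 4.75 and 4.62 in IMB, and 5.52, 5.27 and 5.39 in DOX. As with miR-466i-5p, all DOX pools were above both CTRL pools and IMB pool 1 was highest. The difference was 0.42 (SE 0.37, interval -0.51 to 1.34, limma adjusted p = 0.91) for DOX minus CTRL. Fitted on the DOX and CTRL pools only, the SE was 0.12 (limma adjusted p = 0.26). It was 0.09 (SE 0.37, interval -0.84 to 1.02, limma adjusted p = 1) for IMB minus CTRL and -0.33 (SE 0.33, interval -1.16 to 0.50, limma adjusted p = 0.80) for IMB minus DOX. Without scaling, DOX minus CTRL was -0.01. Without IMB pool 1, IMB minus CTRL was -0.28 for miR-669n and -0.14 for miR-466i-5p, so the sign of both rests on that pool.

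The third member detected on all arrays was miR-669f-3p, from the cluster in Sfmbt2. Its unscaled signal was 18.7 and 24.8 in CTRL, 7.95, 14.8 and 13.8 in IMB, and 8.80, 14.0 and 17.2 in DOX. Before scaling, every drug pool thus lay below both CTRL pools. The 75th percentile used for scaling was 300 and 349 in CTRL but 267 in DOX pool 3. Divided by these percentiles, the signal of DOX pool 3 lay above that of CTRL pool 1, so the order did not hold after scaling. The total gene signal was 6.39 and 11.2 in CTRL, 2.87, 6.44 and 4.58 in IMB, and 2.75, 4.82 and 5.89 in DOX, where IMB pool 2 lay above the lower CTRL pool.

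In the main fit miR-669f-3p was at the floor of 20.9 (log2 4.39) on every array, so its differences of 0 are not measurements. With a floor 4 times lower, its log2 difference was -0.76 (SE 0.22, limma adjusted p = 0.19) for IMB minus CTRL and -0.32 (SE 0.22, limma adjusted p = 0.70) for DOX minus CTRL. With scaled total gene signal the values were -0.80 (SE 0.25, limma adjusted p = 0.28) and -0.39 (SE 0.25, limma adjusted p = 0.63). Neither passed the threshold. Its probe above background was so on both CTRL arrays and on 2 of 3 arrays of each drug, so it entered the test only through CTRL, the group where its signal was high. Its lower values in the drug pools are therefore a description and not support for a difference.

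Also from Sfmbt2, miR-466h-3p was detected on 7 arrays, all but IMB pool 1. Its unscaled signal was 20.7 and 18.5 in CTRL, 10.4, 33.5 and 24.96 in IMB, and 13.6, 33.1 and 16.6 in DOX. The pools of each drug lay on both sides of the CTRL pools. Over all arrays the highest, IMB pool 2, was 3.21-fold above the lowest, IMB pool 1, where it was not detected. It was at the floor on 5 arrays, including both CTRL pools and DOX pools 1 and 3, and its log2 difference was 0.05 (SE 0.27, limma adjusted p = 1) for IMB minus CTRL, 0.28 (SE 0.27, limma adjusted p = 0.91) for DOX minus CTRL and -0.23 (SE 0.24, limma adjusted p = 0.80) for IMB minus DOX. DOX pool 2 is the only array of these groups with a value above the floor, so without it DOX minus CTRL has no measurement. The total gene signal was 8.77 and 10.3 in CTRL, 18.2 and 10.6 in IMB pools 2 and 3, and 5.75, 14.0 and 7.06 in DOX.

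The Fxr2 member miR-467f, one of the AC-repeat sequences above, was likewise lowest in IMB pool 1, and highest in DOX pool 2. It too was detected on all arrays but IMB pool 1. Its unscaled signal was 16.4 and 14.0 in CTRL, 7.99, 24.6 and 19.0 in IMB, and 10.3, 26.4 and 12.5 in DOX. It was at the floor on 7 arrays, all but DOX pool 2, so its difference of 0 for IMB minus CTRL is not a measurement. The log2 difference was 0.17 (SE 0.16, limma adjusted p = 0.91) for DOX minus CTRL and -0.17 (SE 0.14, limma adjusted p = 0.74) for IMB minus DOX, and both come from that pool alone. Like miR-669f-3p, miR-466h-3p and miR-467f entered the test only through CTRL. The total gene signal was 4.39 and 5.20 in CTRL, 13.3 and 5.52 in IMB pools 2 and 3, and 3.31, 11.2 and 3.55 in DOX.

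**Figure D2:**
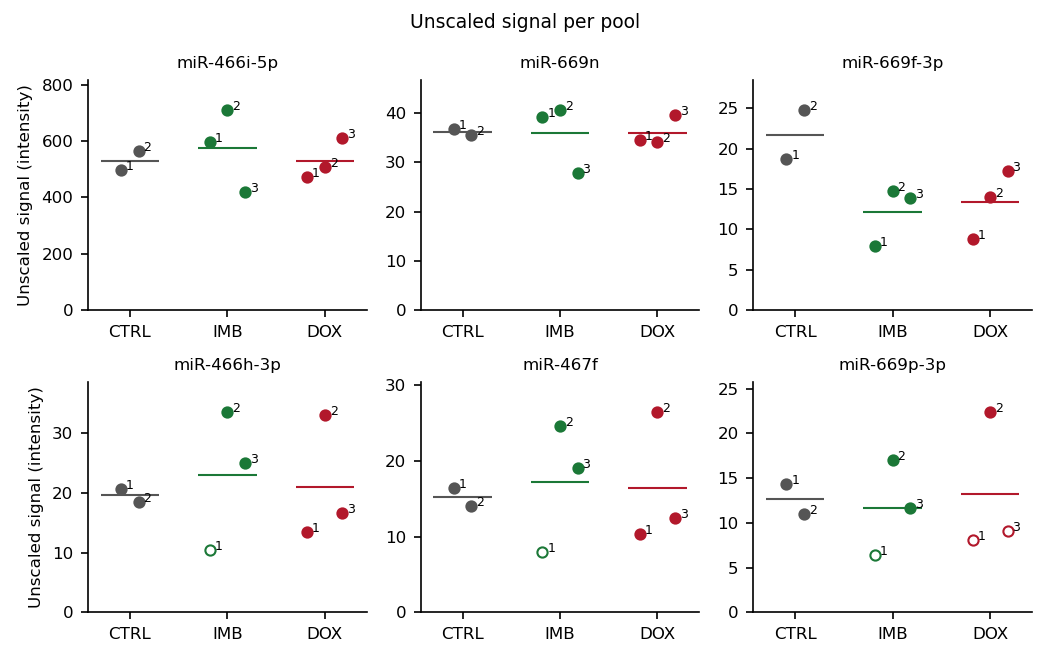
Unscaled signal in intensity units per pool for 6 members in CTRL (n = 2), IMB (n = 3) and DOX (n = 3); points are pools numbered as labelled, open points are pools where the member was not detected, and lines are group means. Before scaling, all drug pools of miR-669f-3p lie below both CTRL pools, and for the other 5 members the groups overlap.

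The other 6 detected members entered no test, since no group had them well above background on all its arrays. The miR-669p-3p signal, from 2 genes in Sfmbt2, was 14.4 and 10.99 in CTRL, 6.45, 17.002 and 11.6 in IMB, and 8.14, 22.4 and 9.15 in DOX, and it was detected on 5 arrays. The AC-repeat member miR-466q was detected on 5 arrays, with 8.32 and 6.70 in CTRL, 2.09, 10.8 and 7.16 in IMB, and 4.51, 11.2 and 5.21 in DOX. In both, IMB pool 1 was lowest and DOX pool 2 highest. For miR-466f-3p, detected on 6 arrays, the signal was 5.37 and 3.44 in CTRL, 1.22, 4.92 and 3.78 in IMB, and 3.19, 6.45 and 2.32 in DOX.

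The opposite arm of the miR-466i hairpin, miR-466i-3p, was detected only in DOX pool 2. Its signal was 8.38 and 6.52 in CTRL, 2.63, 7.37 and 6.49 in IMB, and 5.07, 10.9 and 5.64 in DOX. Its probes carry a dim signal on arrays where those of miR-466i-5p were well above background. From Sfmbt2, miR-669l-5p was detected only in IMB pool 1 and had 7.37 to 12.7 over the arrays. The signal of miR-669e-5p, detected on 3 arrays, ran from 7.47 to 9.20, a 1.23-fold range.

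The pools recurred at the ends of the range. IMB pool 1 was lowest for 7 of the 11 detected members, and DOX pool 2 was highest for 5 of them. IMB pool 2 was highest for miR-466i-5p, miR-669n, miR-466h-3p, miR-669l-5p and miR-669e-5p. IMB pool 1 also had the lowest 75th percentile of all arrays, whereas miR-466i-5p and miR-669n were not low in it.

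Across the 3 comparisons, 0 of 5 tested members were called at an adjusted p of 0.05 by limma. In the same fit 1.02% of the 294 tested miRNAs were called in IMB minus CTRL, 0.340% in DOX minus CTRL and 1.02% in IMB minus DOX. At an unadjusted p under 0.05 the members' count was also 0 in each comparison, against 23, 25 and 32 of all tested miRNAs. None of the 22 alternatives called a member. The members' median log2 difference was 0.05, 0.28 and -0.21 in these comparisons, against 0.01, 0 and 0 over all tested. The medians of 0.05 and 0.28 are the values of miR-466h-3p, a member at the floor on 5 arrays. Its 0.28 in DOX minus CTRL comes from DOX pool 2 alone, so these medians do not show a shift of the members together. With 3 of the 5 at the floor on 5 or more arrays, these counts and medians say little about those 3.

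The groups did not overlap for 2 of 5 tested members in DOX minus CTRL, miR-466i-5p and miR-669n, against 28.6% of all tested miRNAs. The count was 0 in IMB minus CTRL and 0 in IMB minus DOX, against 17.7% and 15.0%. The comparisons share arrays, so their values are not independent.

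**Figure D3:**
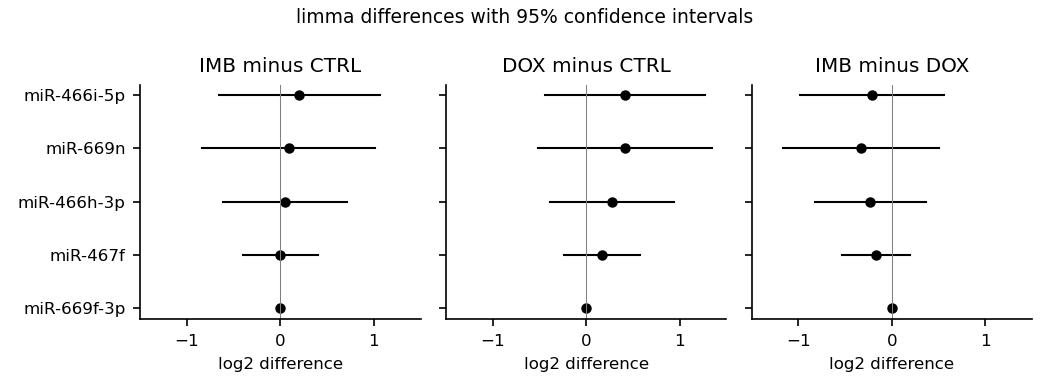
limma log2 differences of the 5 tested members for IMB minus CTRL, DOX minus CTRL and IMB minus DOX; points are estimates and lines 95% confidence intervals. Every interval includes 0, and miR-669f-3p sits at 0 because it is at the floor on all 8 arrays.

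The probes of a member target the same miRNA, so their ratio on each array is a check of how steadily they measure. A steady ratio does not show that the signal came from that miRNA alone, which was not tested. For miR-466i-5p the brighter probe was 1.26-fold above the other, between 1.22 and 1.28 on the 8 arrays, and its log2 ratio was 0.33 ± 0.02 (SD over 8 arrays). For miR-669n the ratio was 1.04, between 0.959 and 1.13. Both members had all probes well above background on all arrays, as did 178 of the 245 miRNAs well above background on every array with 2 or more probes (72.7%), whose median ratio of brightest to dimmest was 1.53.

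The dimmer members allow less to be read. The mean ratio was 1.21 for miR-466h-3p, between 1.04 and 1.39 over the arrays, with both probes well above background on some arrays. The 4 probes of miR-669p-3p each passed on 1 array, and their mean signals were 11.2 to 13.3. In miR-467f the probe means were 22.1 and 10.7, and in miR-669f-3p 24.1 and 5.87, with only the brighter of the 2 probes well above background on any array. In miR-669e-5p neither was, so no ratio is given for these 3 members. The probe of miR-669f-3p above background gave 30.1 and 40.6 in CTRL, 13.6, 23.7 and 21.6 in IMB, and 13.0, 22.7 and 27.8 in DOX. The pattern of that member therefore rests on a single probe. For miR-466f-3p, 1 of 4 probes exceeded background and 2 had means below 0, so no ratio is given, nor for miR-466q and miR-466i-3p, whose dimmer probe was at or below 0 on some arrays.

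**Figure D4:**
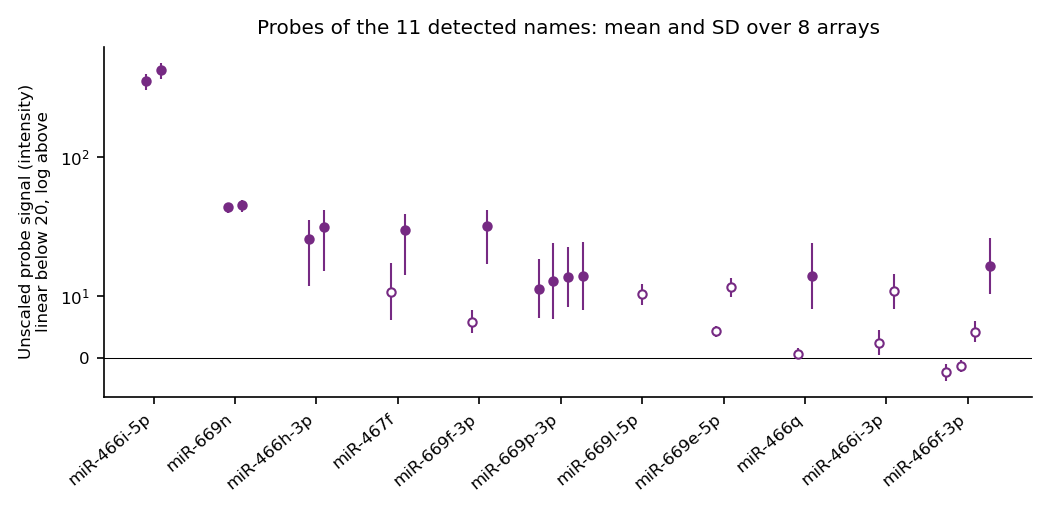
Unscaled probe signal in intensity units (linear below 20, logarithmic above) of the 11 detected names; points are probe means and lines SD over 8 arrays, filled where the probe was well above background on at least 1 array. The probes of miR-466i-5p, miR-669n and miR-669p-3p lie close together, and those of miR-669f-3p, miR-466q and miR-466f-3p do not.

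Scaling changed how steady the well-measured members looked. Over all 8 arrays the coefficient of variation before scaling was 16.9% for miR-466i-5p and 11.4% for miR-669n, ranks 20 and 2 from the lowest of 245 miRNAs well above background on every array, whose median was 28.8%. After scaling it was 27.5% and 29.0%, ranks 210 and 215, against a median of 17.6%. These are descriptions over arrays of all groups. The median miRNA was steadier after scaling, and both members were more variable.

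The same was seen in miR-574-5p and miR-1187, the pair from outside the families whose values were examined. The detected miRNAs miR-32-3p and miR-3082-5p also hold the letters GUGUGUGU, and their values were not examined here. For miR-574-5p the coefficient was 16.2% before and 32.0% after scaling, and for miR-1187 it was 16.9% and 35.3%. In IMB pool 1 the unscaled signals of the 4 miRNAs were 109% to 124% of their own means, where the 75th percentile was 67.6% of its mean. In IMB pool 3 they were 71.8% to 77.4%, where the 75th percentile was 110%. Their DOX minus CTRL differences were 0.43 (SE 0.40, limma adjusted p = 0.91) for miR-574-5p and 0.45 (SE 0.44, limma adjusted p = 0.92) for miR-1187.

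**Figure D5:**
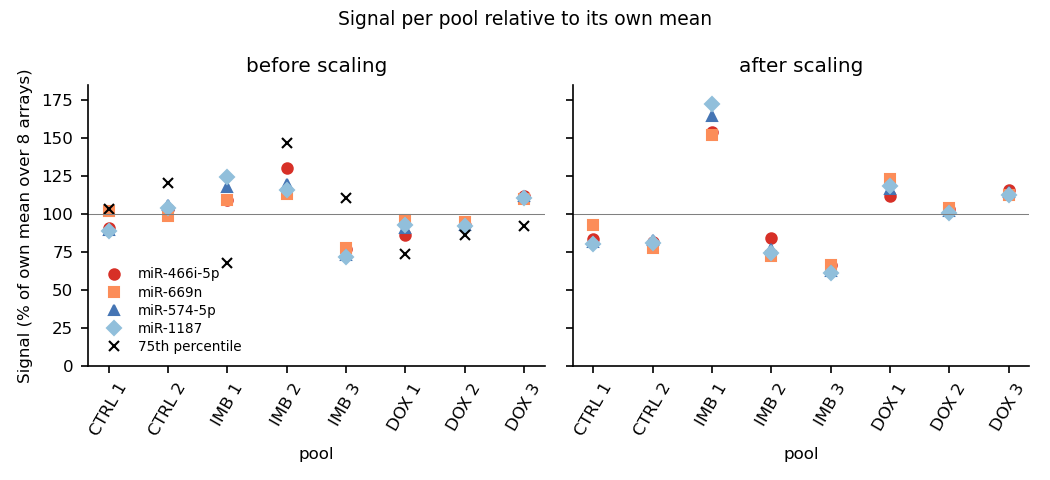
Signal per pool as a percent of its own mean over 8 arrays, before (left) and after (right) scaling, for miR-466i-5p, miR-669n, miR-574-5p and miR-1187, with the 75th percentile used for scaling as crosses. The 4 miRNAs keep together in each pool, and in IMB pool 1 they lie above 100% where the 75th percentile is at 67.6%.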

How the data were processed

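Plasma RNA of 8 pools was measured on one-colour miRNA arrays. The deposited scanner files hold intensity on the linear scale, background-subtracted by Agilent Feature Extraction 11.5.1.1 per the submitters' processing notes and the file headers. A table deposited by the authors holds log2 values, made by steps not given in the sources used here, and was an alternative. From the processed signals, the mean of the non-outlier spots was taken for each probe and scaled by its array's 75th percentile of 454 probes, those called on all 8 arrays. The probes of a name were averaged, floored at 20.9 and put on the log2 scale. Tested were 294 mouse miRNAs well above background (over 50% of spots) on every array of at least 1 group. limma 3.58.1 in R 4.3.3 was fitted to all 8 arrays (lmFit, eBayes, 2-sided; residual degrees of freedom 5, prior 0.605) with Benjamini-Hochberg adjustment over all tested miRNAs. Counts per array were compared by exact permutation. The limma fit was tested on simulated normal log2 values with known changes in IMB, to which no floor was applied. Figures used matplotlib 3.10.9.

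Members and lists were chosen with earlier results of these data known. Every member detected on at least 1 array was named, with up to 5 undetected names by highest signal. The labels call the pools biological replicates, and p-values measure the spread between pools. Alternatives changed the signal, background correction, scaling, filter, floor, probe summary, blocks, covariate and samples. The background correction alternative used median spot signals. Locations and sequences are from RefSeq tables of GRCm38.p6, while the file headers name mm9, so names and not array coordinates were matched.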

Additional observations from a re-analysis of the deposited data

How the results depend on the processing

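In the 22 alternatives, 14 of the settings and 8 that left out 1 array, no fit called a tested member. The lowest adjusted p by limma was 0.063, for miR-669n in IMB minus DOX without IMB pool 1 (log2 difference -0.70). Over the alternatives DOX minus CTRL ran from -0.01 to 0.53 for miR-466i-5p and from -0.01 to 0.55 for miR-669n. Ranges for dim members were wider: with the authors' deposited table miR-467f was 2.05 in DOX minus CTRL and miR-669f-3p was -1.498 in IMB minus CTRL. The log2 probe ratio on median spot signals, which include background, was 0.30 for miR-466i-5p and 0.07 for miR-466h-3p.

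Correlations of deviations from the group mean ran from -0.24 to 0.40 for same-numbered pools and from -0.46 to 0.47 for differently numbered pools. The deviations of the 2 CTRL pools mirror each other, so these correlations cannot settle whether replicate numbers pair the pools. With the replicate block 0 members were called in each comparison, and the number detected differed by -1.5 for IMB minus CTRL, -1.5 for DOX minus CTRL and 0.667 for IMB minus DOX. Leaving out 1 array gave -2 to 0, -3 to -1 and -0.167 to 1.83. By the stricter detection rule the differences were -1, -0.667 and -0.333. With 2 control pools and signals near background, small changes of dim members were not resolved.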

Other observations

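Dlk1-Dio3 is another imprinted miRNA cluster expressed in placenta. A list of its miRNAs, which may not be complete, gave 94 array names. Of these, 7 were detected on at least 1 array (7.45%) and 2, miR-370-3p and miR-494-3p, on all 8. Of the 3 tested, 0 were called by limma in any comparison. For miR-370-3p the log2 difference was 0.07 (SE 0.27) for IMB minus CTRL and -0.20 (SE 0.27) for DOX minus CTRL, and for miR-494-3p it was -0.06 (SE 0.45) and -0.25 (SE 0.45). The third, miR-882, was at the floor on every array, so its differences of 0 are not measurements.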
